A study of Bos taurus with 7 samples.

Results

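The comparison is of 1 fraction of commercial cow's milk, the library titled MP - 12k, with the 3 libraries of the milk itself, titled Milk - 1, 2 and 3, which are 4 of the 7 libraries of the study. All came from skimmed, filtered, pasteurised and homogenised milk of a retail brand (Lactantia purefilter; Bos taurus, Holstein), with RNA taken by Trizol LS and a column with DNase, and the labels give no treatment, age or number of cows. The labels spell out neither MP nor k, give all 7 libraries the same protocol, and do not say how the fraction was made or whether the milk libraries are separate cartons. Other fractions, titled 35k, 70k and 100k, have 1 library each and are used here only beside single results. Each library is a list of distinct sequences of 8 to 15 nt with their reads, and all values are reads per 1000000 reads of that list (RPM). The 12k library held 2309731 reads of 44623 distinct sequences, and the milk libraries held 1658606, 3070812 and 4572650 reads of 47797, 52068 and 48966 sequences. A sequence was a member if it had 10 or more reads in the 12k library or in all 3 milk libraries, which 11981 of the 131392 distinct sequences of these 4 libraries did. They carried 97.0% of the 12k reads and 90.2%, 90.7% and 93.2% of the milk reads. With 1 fraction library there is no replicate of 12k, so every value is set beside the range of the 3 milk libraries.

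Milk carries RNA from the mammary epithelium, from shed cells and in vesicles and particles, and short pieces of RNA are found in it. Ribosomal RNA (rRNA), the RNA frame of the ribosome, and transfer RNA (tRNA), which brings amino acids to the ribosome, are the most abundant RNAs of a cell, and their fragments are common in body fluids. A piece of 8 to 15 nt is shorter than a microRNA, the small RNAs that guide silencing of messenger RNAs, and often cannot be assigned to 1 source. Sequences were therefore grouped into 200 families around the most abundant ones, each made of sequences that share an identical run of 10 nt with its leading sequence or lie within it. Of these families 34 were recognised from general knowledge as pieces of known vertebrate RNAs or of an adapter, 26 lay 1 base away from the leading rRNA sequences, and 140 were not assigned to any RNA or organism. The 200 families held 89.7% of the 12k reads and 87.4%, 88.2% and 91.3% of the milk reads.

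The forms that carry the comparison are printed here in the DNA letters of the deposited lists, because their lengths and ends are what the libraries count. Capitals mark the run of bases that the leading forms of a family share. Sequences without capitals are shown as the single leading member of their family.
5.8S rRNA, 12-nt form: gACTCTTAGCGG
5.8S rRNA, 13-nt form: cgACTCTTAGCGG
5.8S rRNA, 14-nt form: acgACTCTTAGCGG
28S rRNA, the leading segment, 14-nt form: caGGACGGTGGCCA
28S rRNA, the leading segment, 15-nt form: gcaGGACGGTGGCCA
28S rRNA, the leading segment, 13-nt form: aGGACGGTGGCCA
18S rRNA, the leading segment, 14-nt form: gcAGCTAGGAATAA
18S rRNA, the leading segment, 15-nt form: cgcAGCTAGGAATAA
18S rRNA, the leading segment, 13-nt form: cAGCTAGGAATAA
lysine tRNA, 3' end: aCGTTGGGCGCC
cysteine tRNA, after the anticodon: tcAAGAGGTCCC
serine tRNA, 5' end: gACGAGGTGGC
glycine tRNA, 5' end: gcattGGTGGTTCag
lysine tRNA, T arm: GGTCGTGGGTT
cysteine tRNA, 5' end: gggggtatagctc
28S rRNA, the second segment: gggaacgtgagctgg
28S rRNA, the third segment: ggaaactctggtgga
valine tRNA, 3' end: cgggcggaaaca
miR-183, 5' part: tatggcactggtaga

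The most abundant RNA of the 12k fraction lay inside the range of milk. The family of the 5' end of 5.8S rRNA, a small RNA of the large ribosomal subunit, stood at 726975 RPM in 12k and at 708307, 712184 and 764602 RPM in milk 1, 2 and 3. Milk 1 and 2 were lower and milk 3 higher than 12k. The log2 fold change against milk was -0.0028 (SE 0.12, adjusted p = 0.991, edgeR's quasi-likelihood test over 200 families). A shift smaller than the milk spread was not detectable with 1 library.

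The ends of the 5.8S pieces were also within the spread of milk. The 12-nt form made up 469789 RPM in 12k, against 377113, 465050 and 536757 RPM in milk. The 13-nt form, with the first base of 5.8S rRNA added, had 199228 RPM in 12k and 260255, 189882 and 166555 RPM in milk. Their ratio, 13-nt over 12-nt form, was 0.424 in 12k and 0.690, 0.408 and 0.310 in milk, with milk 1 the highest. In the fractions titled 70k and 100k the same ratio was 2.00 and 2.85, with the longer form in excess. The 14-nt form, which carries 1 base more at its 5' end, stood at 18490 RPM in 12k and at 18978, 18863 and 18366 RPM in milk.

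The leading pieces of 28S rRNA, the long RNA of the large subunit, lay just below milk, and those of 18S rRNA, the RNA of the small subunit, at its lower edge. The 28S family had 36893 RPM in 12k and 53805, 47987 and 39792 RPM in milk (log2 fold change -0.36, SE 0.26, adjusted p = 0.489). The 18S family had 13960 RPM in 12k and 13833, 15666 and 19159 RPM in milk (adjusted p = 0.726). Neither difference passed the test. The 28S forms differed slightly in their lengths, with the 13-nt form at 0.103 of the 14-nt form in 12k and at 0.114, 0.136 and 0.135 in milk. For 18S the 13-nt over 14-nt ratio was 0.686 in 12k, above the milk values of 0.595, 0.628 and 0.582. These ratios were not tested.

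Other stretches of 28S rRNA did not follow the leading one. The second 28S family had 210 RPM in 12k and 691, 1249 and 795 RPM in milk, 3.29-fold below the lowest milk library (log2 fold change -2.12, SE 0.61, adjusted p = 0.109). Its leading 15-nt sequence lay further from milk, at 9.09 RPM against 149, 362 and 255 RPM. The third 28S family went the other way, with 548 RPM in 12k above 296, 122 and 82.9 RPM in milk (adjusted p = 0.289). Its 15-nt form stood at 207 RPM in 12k and at 3.02, 9.44 and 2.41 RPM in milk, and at 414 RPM in 35k. With 5 reads in milk 1 that form was a member through 12k alone, so its values are given as a description. So by their family values single segments of 1 rRNA lay on both sides of milk, while neither family passed edgeR's test with all 3 milk libraries. DESeq2 called the second family lower (adjusted p = 0.0084). Without milk 1, edgeR called the second lower (adjusted p = 0.0153) and the third higher (adjusted p = 0.0154). For 5S rRNA, the smallest RNA of the large subunit, the 3' end family had 1800 RPM in 12k against 1890, 5219 and 3603 RPM, and the inner family 921 RPM against 1012, 1108 and 1031 RPM.

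Over all 200 families, 50 lay above every milk library (25%), 81 below every one (40.5%) and 69 inside the range. Of the 11 rRNA families 6 lay below (54.5%) and 1 above (9.09%), too few to set their spread against that background. Together they held 78.3% of the 12k reads and 78.2%, 78.6% and 83.1% of the milk reads. With TMM factors, which rescale the libraries by their shared families, 62 of 200 families lay below, 56 above, and 3 of the 11 rRNA families below.

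**Figure D1:**
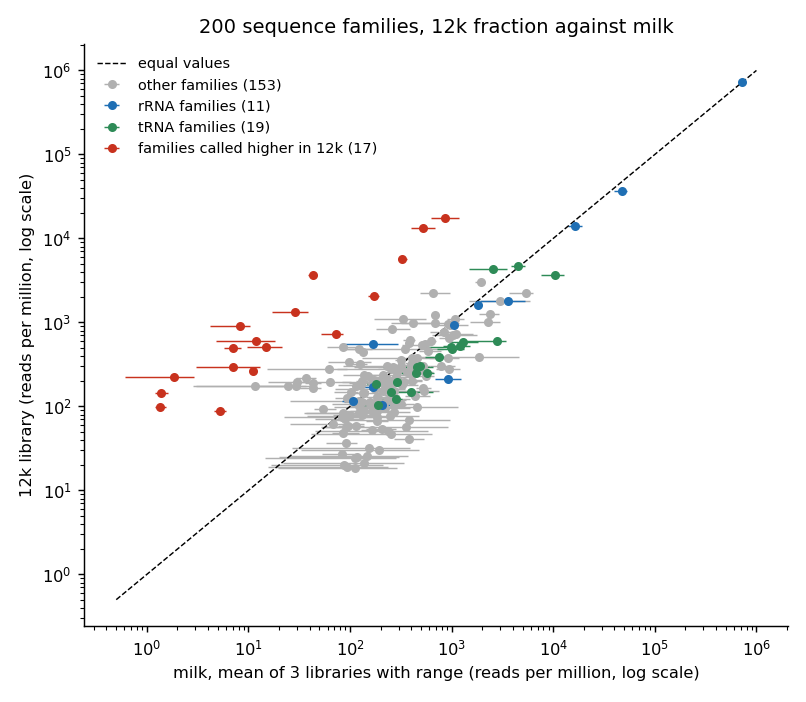
Each point is 1 of 200 sequence families, with its RPM in the 12k library against the mean of the 3 milk libraries, both on log scales, and the bar spans the lowest to the highest milk library. Most points lie along the dashed line of equal values, the 19 tRNA families sit mostly under it, and the 17 families called higher in 12k stand apart above it, with 87.9 to 17328 RPM in 12k.

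Most tRNA families lay below milk in 12k, though none of them passed edgeR's test. DESeq2 called 1 of them lower, the serine 5' end (adjusted p = 0.0306). Of 19 tRNA families, 15 lay below every milk library and 1 above, and 16 had a negative log2 fold change, as did 127 of all 200 families (63.5%). The median log2 fold change was -0.95, against -0.36 over all 200 families. Under TMM factors 12 of the 19 lay below milk and 16 were negative, the same number as with the size factors of DESeq2, beside 112 and 111 of all 200 families. The tRNA families summed to 1.79% of the 12k reads and to 2.05%, 3.46% and 3.18% of the milk reads. As shares of a list, such values cannot tell fewer pieces of 1 RNA from more of another, nor fewer cells from less RNA per cell.

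The 3' end of lysine tRNA, the side of the tRNA where the amino acid is attached, was the largest tRNA family in milk. It had 3706 RPM in 12k and 7550, 12655 and 10797 RPM in milk, so the fraction was 2.04-fold below the lowest milk library (log2 fold change -1.48, SE 0.42, adjusted p = 0.104). The other lysine families were below milk too. The D arm family, from the 5' side of the tRNA, had 583 RPM against 940, 1836 and 1114 RPM. The T arm family, from its 3' side, had 147 RPM against 235, 658 and 296 RPM. The 12-nt leader of that family had 81.0 RPM in 12k and 127, 436 and 156 RPM in milk, 1.57-fold below the lowest library. The 11-nt form printed above had no read in 12k and 22.3, 67.1 and 22.3 RPM in milk. With a floor of 3 reads for the 12k library it was at least 17.2-fold lower. It was a member through milk alone and was listed for its large fold change, so its values are given as a description.

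The 5' end of serine tRNA showed the lowest tRNA level relative to milk. It stood at 607 RPM in 12k and at 1376, 3452 and 3465 RPM in milk, 2.27-fold below the lowest library (log2 fold change -2.19, SE 0.70, adjusted p = 0.135). A family from the 5' end of another serine tRNA had 484 RPM against 716, 1325 and 1012 RPM. Milk 1 was the lowest milk library for both. The alanine 5' end had 527 RPM against 825, 1528 and 1309 RPM, and the tryptophan 3' end 385 RPM against 553, 949 and 758 RPM. Valine tRNA had 149 RPM against 230, 285 and 242 RPM for its 3' end family, and its 12-nt form was lower still, at 5.63 RPM against 61.5, 101 and 72.6 RPM. All of these values lay below the milk range.

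Cysteine tRNA gave opposite positions for its ends. The piece that starts after the anticodon had 4332 RPM in 12k, above 1466, 2707 and 3517 RPM in milk, by 1.23-fold over the highest library (log2 fold change 0.76, SE 0.52, adjusted p = 0.487). The 5' end of cysteine tRNA had 508 RPM, just below 549, 1334 and 1056 RPM in milk. The ratio of these families was 8.52 in 12k, 2.67, 2.03 and 3.33 in milk, and 5.22 in 35k. The ratio does not depend on how the libraries are scaled, and the 12k value lay outside the milk range.

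The 5' end of glycine tRNA, a common fragment of body fluids, did not differ beyond the milk spread. It had 4736 RPM in 12k and 3838, 4370 and 5304 RPM in milk (log2 fold change 0.07, SE 0.35). The glycine family was therefore 1.28 times the lysine 3' end family in 12k, whereas lysine led in every milk library, with glycine at 0.508, 0.345 and 0.491 of it. Another glycine 5' end had 249 RPM against 304, 596 and 429 RPM, and the glycine anticodon arm had 195 RPM against 254, 304 and 304 RPM. Of the histidine families, the D arm stood at 292 RPM among 210, 652 and 509 RPM, and the 3' end at 184 RPM among 146, 237 and 156 RPM, both inside the range.

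**Figure D2:**
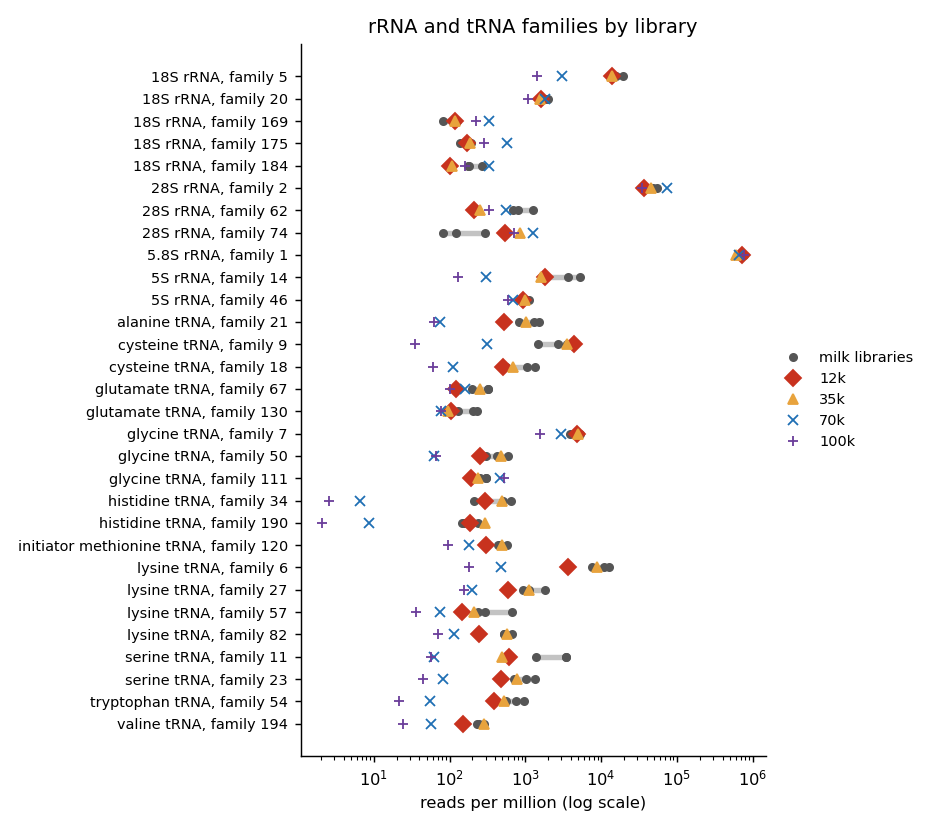
RPM (log scale) of the 11 rRNA and 19 tRNA families in each library. Grey points and bars are the 3 milk libraries and their range, red diamonds the 12k library, and the other symbols the single libraries of 35k, 70k and 100k. The 12k diamonds lie left of the grey bar for 15 of the 19 tRNA families, and the 70k and 100k symbols of most tRNA families lie further left.

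Of the remaining named families, the 5' part of miR-183, a microRNA of epithelial and sensory cells, varied more among the milk libraries than between them and 12k. It had 116 RPM in 12k and 288, 56.3 and 25.6 RPM in milk. The 5' end shared by Y RNAs, small RNAs bound by the Ro protein, had 296 RPM against 476, 202 and 110 RPM. Both lay inside the milk range, and milk 1 was the highest library for each. A second Y RNA family, from the 5' part of Y4, had a log2 fold change of -0.74. Its leading sequence stood at 30.3 RPM in 12k, below 36.8, 61.9 and 68.5 RPM in milk. A sequencing adapter end stood at 271 RPM in 12k and at 397, 540 and 232 RPM in milk.

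The families that passed the test were all higher in 12k, and none of them was recognised as a known RNA. With edgeR there were 17 of 200 (8.5%), with none lower, and 39 families had an unadjusted p under 0.05 (DESeq2 called 26 higher and 5 lower). The 200 families had been ranked on 12k and milk values together, and 6 of the 17 (24, 37, 86, 92, 146 and 197) met the minimum of 10 reads through 12k alone. That choice favours a value above milk, so the calls of these 6 are given as a description. The other 11 also had 10 or more reads in every milk library, as did 194 of all 200 families. Their place among the 200 could still rest on 12k. The leader of family 12, for example, had 1721 RPM in 12k and a milk mean of 19.2 RPM. The calls of the 11 are therefore a description as well. These 11 held 4.54% of the 12k reads and 0.249%, 0.173% and 0.199% of the milk reads, with log2 fold changes of 3.32 to 6.41. All 17 together made up 4.76% of the 12k reads and 0.251%, 0.176% and 0.203% of the milk reads (0.210% ± 0.0375, SD, n = 3). Over the 17, log2 fold changes ran from 3.32 to 6.84, their ratios to the highest milk library from 8.42 to 89.3, and their adjusted p-values from 0.0012 to 0.0133. The spread behind these p-values came from the 3 milk libraries alone (2 residual degrees of freedom), and 12k was assumed to vary like them. Without milk 2 none of the 17 was called, at adjusted p-values of 0.0719 to 0.241, with log2 fold changes of 3.40 to 7.28. The organism of origin of these sequences was not determined, and they are given by family number, length and base content.

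Family 3, led by a 10-nt sequence of 80% G and C, was the largest of them. It had 17328 RPM in 12k and 1175, 620 and 784 RPM in milk, which makes it the third most abundant family by its values in 12k (log2 fold change 4.33, SE 0.41, adjusted p = 0.0018). Family 4, also led by a 10-nt sequence, had 13296 RPM in 12k and 687, 395 and 500 RPM in milk (log2 fold change 4.66, SE 0.39). The ratio of family 3 to family 4 was 1.30 in 12k and 1.31 in 35k, and 1.71, 1.57 and 1.57 in milk. Both families were higher in 12k, and no milk library came near the fraction.

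Family 8, led by a 12-nt sequence, had 5639 RPM in 12k and 300, 320 and 365 RPM in milk (log2 fold change 4.10, SE 0.36). Family 12, led by a 12-nt sequence of 41.7% G and C, had 3650 RPM against 38.6, 46.9 and 42.9 RPM, a ratio of 77.8 to the highest milk library (adjusted p = 0.0012). Family 13, led by a 14-nt sequence of 78.6% G and C, had 2040 RPM against 149, 193 and 171 RPM. For all of these the milk libraries lay close together and the fraction far above them. Family 35, the poorest in G and C at 23.1%, had 1332 RPM against 16.9, 31.6 and 38.5 RPM, and family 24, one of those chosen through 12k alone, had 916 RPM against 4.22, 10.4 and 10.3 RPM.

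The other 10 called families were less abundant, with 87.9 to 721 RPM in 12k and 0.603 to 85.6 RPM in single milk libraries. Family 146 had the largest ratio to the highest milk library, 89.3, on 145 RPM in 12k and 1.21, 1.63 and 1.31 RPM in milk, where it rested on 13 milk reads together and entered through its 12k reads alone. Among the 11 families with 10 reads in every milk library the ratios ran from 8.42 to 77.8. Family 36 had the smallest, 8.42, with 721 RPM in 12k and 85.6, 79.5 and 51.4 RPM in milk. Across the 17 families the leading sequences were 10 to 15 nt long with a median of 13 nt, against 12 nt over all 200 families. Their G and C content ran from 23.1% to 90%, with a median of 58.3% against 61.5%, so the called families did not share 1 length or base content.

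The same families were abundant in the 35k library, where they held 5.09% of the reads, against 0.615% in 70k and 0.654% in 100k. All 17 were within 2-fold between 12k and 35k, as were 174 of all 200 families, and 7 of the 17 were higher in 12k. The median ratio of 12k to 35k was 0.895 over the 17 and 0.810 over the 200. All 17, chosen for their 12k level, were higher in 12k than in 70k and in 100k, as were 140 and 143 of all 200 families. The median ratio of 12k to 70k was 8.24 over the 17 and 2.36 over the 200. Of the 17, 14 lay above every milk library in 70k and 12 in 100k. The same counts over all 200 families are not given here, so no trait of the 17 is read from them. For families 3 and 12, the 35k values were 17019 and 4960 RPM, the 70k values 2879 and 414 RPM, and the 100k values 3383 and 97.5 RPM. With 1 library each, differences among the fractions were not tested.

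**Figure D3:**
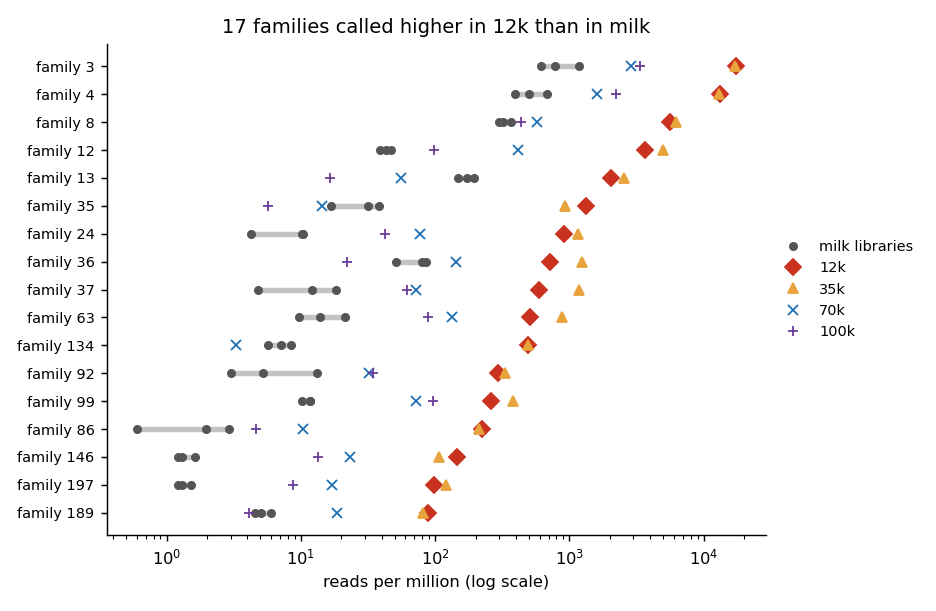
RPM (log scale) of the 17 families called higher in 12k than in milk, ordered by their 12k value. Red diamonds (12k) and orange triangles (35k) lie together at the right, grey milk points lie 8.42-fold or more to the left of the diamonds, and the crosses of 70k and 100k lie left of the diamonds, above every milk point in 14 and 12 families. Family 134 had no read in 100k and has no symbol there.

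Sequences were also tested singly, where they were seen in most of the libraries. Among 3113 sequences with 10 reads in at least 3 of the 4 libraries, 11 were called, all higher in 12k (0.353%), with 503 at an unadjusted p under 0.05. They belong to families 3, 4, 8, 12, 13, 24, 35, 37 and 63, all among the 17. This overlap is not independent, because the same reads enter both tests. The leaders of families 3, 4 and 8 held 79.4%, 93.7% and 78.7% of the 12k reads of their families. The called sequences of families 24, 35 and 37 had 7, 4 and 4 reads in milk 1, so they passed the filter with the help of 12k. The leaders of families 3 and 4 had 13762 and 12455 RPM in 12k, and 966, 538 and 677 RPM and 627, 353 and 455 RPM in milk (adjusted p = 0.0135 and 0.0133). Of the 3113 sequences, 466 lay above every milk library (15%) and 1209 below every one (38.8%). At more than 2-fold from the nearest milk library the counts were 129 above and 664 below. This filter tilts the balance downward, because a sequence can enter on its milk reads alone but not on its 12k reads alone. With 50 or more reads in 12k or in all 3 milk libraries, a filter that either side can pass, 323 lay above and 115 below by over 2-fold, and with 100 or more reads 156 above and 40 below, so no direction is read from these counts.

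Over all 11981 members the counts turn the other way, because most members entered through their reads in 12k alone. The test called 7297 (60.9%), 6975 higher (58.2%) and 322 lower (2.69%), and 8599 lay above every milk library (71.8%) against 1209 below (10.1%). Choosing a member for its reads in 12k alone favours a value above milk, so nothing is read from these shares. Of the 6975 called higher, 4719 had no read in milk and 6851 had 10 or fewer milk reads together. Only 173 had a read in all 3 milk libraries. The count rests on single libraries of milk, with 9006, 125 and 168 called without milk 1, 2 and 3.

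Members of both sides, 1666 sequences, held 88.7% of the 12k reads and 88.0%, 88.2% and 91.4% of the milk reads. The 9729 members that passed through 12k alone held 8.24% of the 12k reads and 1.32%, 1.58% and 1.02% of the milk reads. The 586 that passed through milk alone held 0.0624% of the 12k reads and 0.859%, 0.921% and 0.767% of the milk reads, and 269 of them had no read in 12k. So most reads of either source lay in sequences that both had, and the 12k-only members were many but thin, with a median of 14 reads.

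Those thin members sat in a band of read numbers. Of the 9729 members of the 12k side alone, 7598 had 10 to 19 reads (78.1%). In the 12k library the number of distinct sequences fell to 792 at 5 reads and rose again to 1192 at 11 reads. Milk 1 levelled off, with 1163 sequences at 7 reads and 1178 at 8. Milk 2 rose from 269 sequences at 15 reads to 368 at 27, and milk 3 from 155 at 10 reads to 369 at 28. Such a band was thus seen in these libraries, and it lay at more reads in the deeper milk libraries 2 and 3.

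Of the 4719 sequences with 10 or more 12k reads and none in milk, 530 were found in 35k, 552 in 70k and 411 in 100k (11.2%, 11.7% and 8.71%), and 3729 were in no other library of the study. The milk libraries were uneven in this respect. Of the sequences with 10 or more reads in milk 1, 35.9% were in neither of the other milk libraries, against 5.88% for milk 2 and 0.965% for milk 3. For 12k, 45.5% to 49.9% were in neither library of a pair of milk libraries. By reads the sharing was high, since the 6531 of the 44623 12k sequences that all 3 milk libraries also held carried 91.4% of the 12k reads, and the 24513 found in no milk library carried 4.66%.

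**Figure D4:**
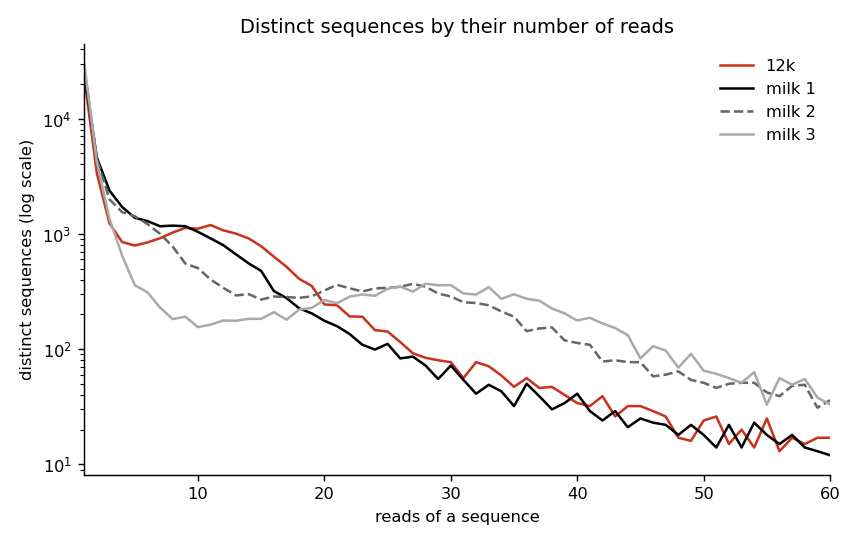
Number of distinct sequences (log scale) by the number of reads that a sequence had, from 1 to 60 reads, in the 12k library and the 3 milk libraries. After the fall from 1 read, the 12k curve rises again to 1192 sequences at 11 reads, milk 1 levels off below 10 reads, and milk 2 and milk 3 rise again at 20 to 30 reads.

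Read lengths were those of milk except at 10 nt. Reads of 10 nt made up 4.58% of the 12k library (Wilson 95% interval 4.55% to 4.60%) and 2.60%, 2.53% and 1.95% of the milk libraries. The leaders of families 3 and 4 held 57.3% of the 10-nt reads of 12k and 6.12%, 3.53% and 5.82% of those of milk. Without these 2 sequences the 10-nt share was 1.96% in 12k, among 2.44%, 2.44% and 1.83% in milk. The most common lengths were 12 nt, at 51.6% against 43.2%, 51.8% and 58.3% in milk, and 13 nt, at 25.2% against 32.8%, 25.1% and 22.2%, both inside the milk range. The shares of the other 5 lengths also lay inside it.

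**Figure D5:**
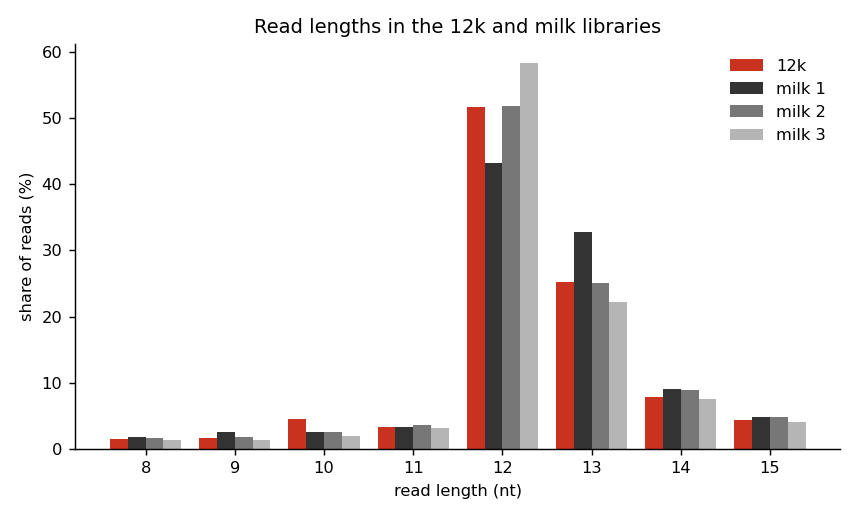
Share of reads (%) by read length from 8 to 15 nt in the 12k library (red) and the 3 milk libraries (grey shades). The bars at 12 nt are the tallest in all 4 libraries, and the 12k bar stands above all milk bars at 10 nt only, with 4.58%.

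The balance of abundant and rare sequences lay inside the milk range. The 10 most abundant sequences took 76.8% of the 12k reads and 73.4%, 75.0% and 79.6% of the milk reads, and the 100 most abundant took 84.3% against 81.7%, 82.1% and 86.5%. G and C made up 60.0% of all bases in 12k and 59.5%, 60.1% and 59.6% in milk. Reads ending in G, as the 5.8S forms do, were 82.5% of the 12k reads, just above 77.7%, 77.8% and 82.0% in milk. Across the 200 families, Spearman's rho of 12k with milk 1, 2 and 3 was 0.447, 0.564 and 0.585, and among the milk libraries it was 0.726, 0.692 and 0.942. Across the 1666 sequences with 10 reads on both sides it was 0.599, 0.611 and 0.596 for 12k, and 0.640 (milk 1 and 2), 0.578 (milk 1 and 3) and 0.798 (milk 2 and 3), so there 12k was not further from milk than milk 1 was from milk 3. These values describe families and sequences that share libraries and depth, and in both milk 1 was further from the other milk libraries than they were from each other.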

How the data were processed

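Each deposited file pairs distinct sequences, 8 to 15 nt long, with a read count and an RPM value, per the file headers. The authors' RPM equalled the read count divided by the file total to within 0.0005, and the 1 closing total line of each file was dropped. The sources used here name no step of trimming, adapter removal, collapsing or filtering. File totals cover that length window alone, not whole libraries. Without molecular identifiers, floors and intervals cover only the counting error. A count of 0 allows up to 3 reads, which is 0.656 to 1.81 RPM in these 4 libraries. Reads with an undetermined base made up 0.0426% to 0.0450% of a library.

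RPM were computed from the counts. Sequences and families with 10 or more reads in 12k or in all 3 milk libraries were tested with edgeR 4.0.16 (quasi-likelihood, library size from the file total, no TMM, Benjamini-Hochberg at 0.05, R 4.3.3). The p-values measure only the spread between the milk libraries, which may be technical, and 12k was assumed to vary like them. An exact permutation test on 1 against 3 libraries cannot go below a one-sided p of 0.25 and was not used. Alternatives were TMM factors, limma 3.58.1 (on log2(RPM + 1)), DESeq2 1.42.0, thinning, other read minimums, other shared runs and leaving out each milk library.

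The members and lists were chosen with earlier results of these data known. Families were named after their sequences had been seen, from general knowledge of vertebrate RNAs and with no reference sequence, so genome positions are not given. Planned matches of reads to RNA classes and microRNA families were not run, because no RNA sequence table was used here, so the tissue of origin was not checked against marker microRNAs. Named sequences were the 10 most abundant in 12k and in milk, up to 12 per direction with the largest ratio to the nearest milk library among those with 100 reads, up to 10 per direction by edgeR fold change, and the leaders of the 15 most abundant families. The leaders of the other recognised families, and the called sequences with 10 reads in 3 libraries, were added after their values were seen. Letters are printed only for recognised RNAs.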

Additional observations from a re-analysis of the deposited data

Results flagged for a closer look

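Some families lay on 1 side of all milk libraries in 12k and on the other side in the libraries of 70k and 100k, and these differences were not tested. The cysteine tRNA piece after the anticodon (family 9) had 4332 RPM in 12k, above milk, with 314 RPM in 70k and 35.1 RPM in 100k, both below every milk library. The glycine tRNA anticodon arm (family 111) had 195 RPM in 12k, below milk, with 459 RPM in 70k and 529 RPM in 100k, both above every milk library.

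Of the 17 unassigned families called higher in 12k, 14 were above every milk library in 70k and 12 in 100k. The same counts over all families are not given here, so no trait of the 17 is read from them. The following 3 of the 17 were below every milk library in both 70k and 100k. Family 13 stood at 2040 RPM in 12k, with 56.1 RPM in 70k and 16.5 RPM in 100k. Family 35 had 1332 RPM in 12k and 14.3 and 5.67 RPM. Family 134 had 493 RPM in 12k, 3.30 RPM in 70k and no read in 100k, where a count of 0 allows up to 1.55 RPM. Each of these fractions is a single library.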

How the results depend on the processing

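The count of called sequences depended on the filter and the tool. Of the members by the rule 7297 were called, against 338 with DESeq2 (158 higher, 180 lower, 8827 without an adjusted p), 11 with 10 reads in at least 3 libraries, 140 with a minimum of 50 reads, 84 with 1 read in at least 2 libraries and 3257 after thinning to the smallest total. Leaving out 1 milk library gave 125 to 9006. The 17 called families became 31 with DESeq2 (26 higher, 5 lower) and 0 to 45 when 1 milk library was left out. Without milk 1, 18 families were called lower, among them the lysine 3' end (log2 fold change -1.66, adjusted p = 0.0045, edgeR) and the serine 5' end (-2.51, adjusted p = 0.0016). Of the 18, 7 were named RNAs, as were 34 of all 200 families, and no trait of the 18 is read from this. The 17 stayed among the called families with TMM factors, with DESeq2 and without milk 1 or milk 3, and none was called without milk 2, where 30 families had an unadjusted p under 0.05. TMM factors moved the median log2 fold change of the families from -0.36 to -0.19.

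Sequences above milk by over 2-fold numbered 7743, against 129 with 10 reads in at least 3 libraries, 323 with a minimum of 50 reads and 4671 after thinning. Those below by over 2-fold numbered 664, against 115 with a minimum of 50 reads and 927 to 2439 without 1 milk library. The 10-nt share of reads exceeded the milk mean by 2.22 percentage points; over distinct sequences it was -0.24 and without the 10 most abundant sequences -0.39 points, since these include the leaders of families 3 and 4. The G and C share exceeded the milk mean by 0.309 points, and by 1.09 over distinct sequences. The share of 12k reads in sequences that all milk libraries held was 91.4%, and 93.8% among sequences with 10 or more reads.

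Signs were followed only for the first 15 families, the 17 called ones and the 34 named ones. Among these they turned for 8 families, such as family 10 from -0.73 to 0.26 without milk 1. Over all 200 families, 127 had a negative log2 fold change, against 112 with TMM factors and 111 with DESeq2. With TMM factors and with DESeq2, family 1 (5.8S rRNA) gave 0.13 and 0.17, and family 131 (miR-183) gave 0.23 and 0.15. Leaving out 1 milk library gave ranges of -0.022 to 0.034 for family 1, -0.030 to 0.21 for family 7, -1.06 to 0.26 for family 10, -0.20 to 0.92 for family 42, -0.57 to 1.51 for family 131, -0.039 to 0.25 for family 169, -0.10 to 0.15 for family 175 and -0.097 to 0.28 for family 190. The cause of these changes was not tested. The planned results for RNA classes and microRNA families, with all their alternatives, were not run. No paired analysis was possible because the fraction has 1 library and its title carries no replicate number. With 1 fraction library and 3 milk libraries, shifts within the milk range were not detectable.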
